A study of Mus musculus with 7 samples.

Results

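The genes described here are 10 transporters of the hepatocyte membrane, chosen by gene symbol and grouped by the side of the cell they serve. Slco1a1, Slco1a4, Slco1b2, Slco2b1 and Slc10a1 carry out uptake from blood across the basolateral membrane, Abcb11, Abcb4 and Abcc2 export into bile across the canalicular membrane, and Abcc3 and Abcc4 export back into blood. All 10 were found among the 24421 gene symbols of the count table, and all 10 were among the 13638 genes that passed the filter on low counts. The data are poly(A) RNA-seq of whole liver from C57BL/6 mice aged 36 weeks. In 4 libraries, PrkciffAlbcre, the mice carried floxed Prkci alleles together with Alb-Cre, a recombinase driven by the albumin promoter, which is active in hepatocytes and in the precursors they share with bile duct cells. In 3 libraries, Prkciff, the mice carried the floxed alleles without Cre. Mice of both groups had been given diethylnitrosamine (DEN), a carcinogen that hepatocytes activate, at 25 mg/kg into the peritoneum at 2 weeks of age, and a diet with 60% fat from 4 weeks of age for 32 weeks. The labels give neither the sex of the mice nor whether a piece of liver held tumour. Libraries are named below by group and number, such as PrkciffAlbcre 2.

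Hepatocytes are polarised cells that take bile salts and organic anions out of sinusoidal blood and pump them into bile. The sodium-coupled carrier NTCP, encoded by Slc10a1, takes up conjugated bile salts, while the sodium-independent OATP carriers of the Slco family take up a wide range of bile salts, steroid conjugates, bilirubin and drugs. The ATP-driven pumps of the canalicular membrane set bile flow, and the pumps MRP3 and MRP4, encoded by Abcc3 and Abcc4, return anions to blood and are known to increase in cholestasis. In mouse liver Slco1a1 is known as a male-biased gene and Slco1a4 as a female-biased one.

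The stretches before the start sites of 4 members whose values differ most clearly between the libraries are shown so that the genes can be set side by side. Each is 250 bases, from RefSeq on GRCm38.p6, printed 5′ to 3′ on the strand of the gene. Slco1a1 lies at chr6:141946963-141947212, Slco1a4 at chr6:141856221-141856470, Slc10a1 at chr12:80968706-80968955 and Abcc4 at chr14:118706220-118706469, all on the minus strand, and where a gene had more than 1 start the most upstream is shown. Capitals mark matches, on either strand, to the core of a nuclear receptor element (AGGTCA), a STAT5 site (TTCNNNGAA), the core of an antioxidant response element bound by NRF2 (TGACNNNGC) or an HNF1 core (GTTAAT).
Slco1a1: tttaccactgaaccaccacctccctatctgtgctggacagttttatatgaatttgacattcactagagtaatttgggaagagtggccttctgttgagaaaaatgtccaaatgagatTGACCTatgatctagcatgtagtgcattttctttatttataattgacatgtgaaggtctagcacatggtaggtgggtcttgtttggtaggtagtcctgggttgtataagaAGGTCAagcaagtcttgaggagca
Slco1a4: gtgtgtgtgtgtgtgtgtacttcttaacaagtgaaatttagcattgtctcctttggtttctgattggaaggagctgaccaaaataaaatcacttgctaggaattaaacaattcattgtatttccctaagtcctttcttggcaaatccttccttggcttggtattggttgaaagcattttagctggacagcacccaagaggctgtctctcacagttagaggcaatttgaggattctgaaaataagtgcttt
Slc10a1: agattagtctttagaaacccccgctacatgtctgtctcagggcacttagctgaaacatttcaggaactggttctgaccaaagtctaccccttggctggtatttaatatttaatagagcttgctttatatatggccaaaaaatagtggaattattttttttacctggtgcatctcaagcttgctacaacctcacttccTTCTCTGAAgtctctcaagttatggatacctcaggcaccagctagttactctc
Abcc4: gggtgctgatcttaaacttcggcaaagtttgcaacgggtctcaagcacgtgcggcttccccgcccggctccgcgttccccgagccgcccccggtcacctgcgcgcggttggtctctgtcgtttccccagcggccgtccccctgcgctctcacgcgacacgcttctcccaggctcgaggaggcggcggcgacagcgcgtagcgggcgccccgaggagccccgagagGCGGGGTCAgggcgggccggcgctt

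In the Slco1a1 stretch matches to AGGTCA stood at 134 bases (on the other strand) and at 24 bases before the start, counted from the leftmost base of the match. The Slco1a4 stretch held none of these motifs, the Slc10a1 stretch held a match to TTCNNNGAA 53 bases before the start, and the Abcc4 stretch held a match to TGACNNNGC 25 bases before it. Of 32851 stretches of the same length before annotated starts, 14.0% held AGGTCA, 7.02% TTCNNNGAA, 10.2% TGACNNNGC and 6.43% GTTAAT. A FOXA core (TGTTTAC) was also searched, was held by 3.17% of all stretches and was found before no member. No matches overlapped in the printed stretches. RefSeq stretches were matched for 9 of the 10 members, all but Abcc3, and such matches describe letters and not bound sites.

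Reads assigned to genes ran from 28695455 to 49203615 in the PrkciffAlbcre libraries and from 23807580 to 26556486 in the Prkciff libraries. Prkci itself, which the floxed alleles target, was at 28.2 to 30.7 CPM (TMM-normalised counts scaled to library size) in the PrkciffAlbcre libraries and at 20.4 to 27.7 CPM in the Prkciff libraries, and its log2 fold change of 0.30 (SE 0.12) missed the threshold in edgeR's quasi-likelihood test (Benjamini-Hochberg adjusted p = 0.214). The count covers the whole gene, including any part outside the deletion, so groups are called here by their labels. Prkciff 3 stood apart from the other Prkciff libraries in acute phase genes. The 27 listed acute phase genes took 4.91% to 5.95% of gene reads in the PrkciffAlbcre libraries, and 16.9%, 17.1% and 4.88% in Prkciff 1, 2 and 3. Markers of hepatocytes summed to 62808 to 77366 CPM in the PrkciffAlbcre libraries and to 81763 to 111585 CPM in the Prkciff libraries over 9 measured genes, none of which passed the test or was at 0. Alb was the largest part of that sum, and of the 9 genes all but Apoa1 overlapped between the groups. Markers of sinusoidal endothelium, 8 of 8 measured, summed to 407 to 546 CPM in the PrkciffAlbcre libraries against 547 to 648 CPM in the Prkciff libraries, and those of cholangiocytes, 10 of 10 measured, to 184 to 380 CPM against 97.1 to 283 CPM, also with no call. The part of the marker differences in the results below was not tested.

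Of the 10 transporters, 1 passed edgeR's quasi-likelihood test at an adjusted p under 0.05, Slco1a4, which was higher, beside 1.26% of all tested genes called higher and 2.21% called in either direction. At an unadjusted p under 0.05 there were 6, beside 18% of all tested genes. In 4 members the groups did not overlap in CPM, beside 16.3% of all tested genes. Of these, 2 were higher in the PrkciffAlbcre libraries, Slco1a4 and Abcc4, beside 8.63% of all tested genes, and 2 were lower, Slco1a1 and Slc10a1, beside 7.63%. The median log2 fold change of the 10 was 0.14, against -0.0083 for all tested genes, and 5 lay above 0 and 5 below. The plot of CPM by library shows the values behind these counts.

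**Figure D1:**
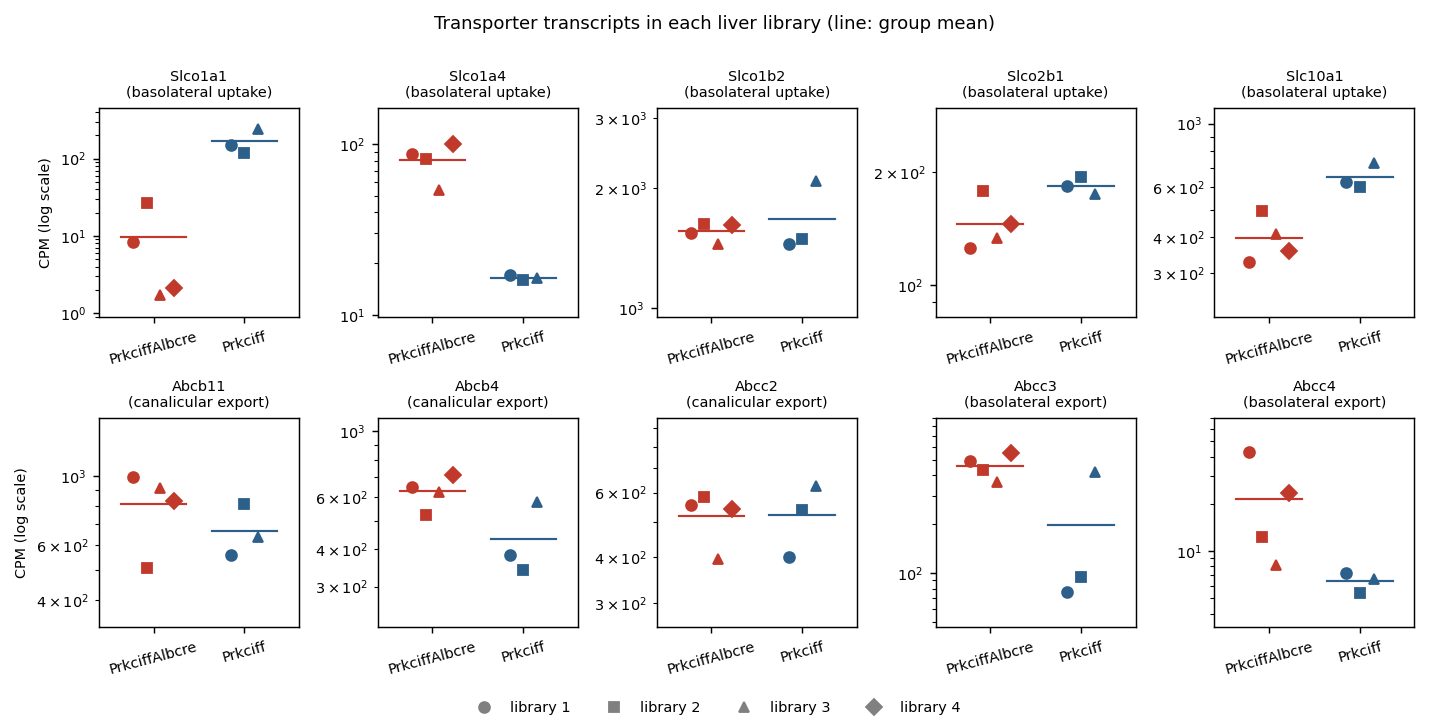
CPM on a log axis of each transporter in the 4 PrkciffAlbcre libraries (red, left) and the 3 Prkciff libraries (blue, right), with marker shape for the library number and a line at the group mean. Slco1a4 lies between 54.3 and 99.96 CPM in the PrkciffAlbcre libraries, above the Prkciff libraries at 15.9 to 17.1 CPM, and Slco1a1 lies below them.

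Among the uptake carriers, Slco1a4 rose in the PrkciffAlbcre libraries. It encodes OATP1A4, a carrier of bile salts, steroid conjugates and cardiac glycosides. Slco1a4 was at 88.3, 82.2, 54.3 and 99.96 CPM in PrkciffAlbcre 1 to 4, against 17.1, 15.9 and 16.4 CPM in Prkciff 1 to 3. The 3 Prkciff libraries lay within 1.07-fold of each other and the lowest PrkciffAlbcre library was above all of them. The log2 fold change was 2.30 (SE 0.19; 4.93-fold, edgeR quasi-likelihood adjusted p = 0.00197), the fourth smallest p among the genes tested. The call held in all 7 fits that left out 1 library, with adjusted p-values from 8.92e-05 to 0.0184 in edgeR. With Prkciff 3 as the lone control the log2 fold change was 2.31, but edgeR's adjusted p was 0.107.

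Slco1a1 had the largest difference of the 10 and did not pass. It encodes OATP1A1, which carries bile salts, thyroid hormones and steroid sulfates. Slco1a1 was at 8.40, 26.8, 1.70 and 2.09 CPM in PrkciffAlbcre 1 to 4, from 449, 1009, 52 and 84 reads, against 149, 119 and 238 CPM in Prkciff 1 to 3. Every PrkciffAlbcre library was below every Prkciff library, and PrkciffAlbcre 2 was nearest to them. The log2 fold change was -4.11 (SE 1.08), or 17.2-fold lower, with an adjusted p of 0.139 in edgeR's quasi-likelihood test, 0.00343 in DESeq2 and 0.0661 in limma-voom. The PrkciffAlbcre libraries differed among themselves by 15.8-fold between the lowest and the highest, against 2.01-fold among the Prkciff libraries, and the biological coefficient of variation in the edgeR fit was 0.89, against a median of 0.19 over all tested genes. Over the fits that left out 1 library the log2 fold change ran from -5.34 to -3.76, with edgeR adjusted p-values from 0.0535 to 0.295.

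Slco1a4 and Slco1a1 are neighbours on the minus strand of chromosome 6, Slco1a4 (ENSMUSG00000030237.14) at chr6:141805440-141856199 and Slco1a1 (ENSMUSG00000041698.11) at chr6:141907282-141946962 in GRCm38 (GENCODE M21), with 51.1 kb and no protein-coding gene between them. Their transcripts are related, and 1.03% of the 75-base runs of Slco1a4 and 1.09% of those of Slco1a1 also stand in another gene, so reads of 75 bases mostly tell them apart. Per kb of exon, the level of Slco1a4 was 8.65, 2.52, 26.3 and 39.4 times that of Slco1a1 in PrkciffAlbcre 1 to 4, against 0.0940, 0.111 and 0.0566 times in Prkciff 1 to 3. Slco1a4 was the higher of the pair in every PrkciffAlbcre library and the lower in every Prkciff library. Their summed level was 15.4, 17.9, 8.79 and 16.0 CPM per kb in PrkciffAlbcre 1 to 4, against 31.0, 25.0 and 47.7 CPM per kb in Prkciff 1 to 3, so the sum was lower in every PrkciffAlbcre library. The nearby Slco1a5 and Slco1a6 had 1 and 11 reads over all 7 libraries together.

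Slc10a1, the NTCP gene (chr12:80953183-80968705, minus strand), was lower in each PrkciffAlbcre library and just missed the threshold. It was at 329, 495, 410 and 358 CPM in PrkciffAlbcre 1 to 4, against 624, 599 and 729 CPM in Prkciff 1 to 3. The groups did not overlap, and PrkciffAlbcre 2 was again nearest to the Prkciff libraries. The log2 fold change was -0.71 (SE 0.17), 1.64-fold lower, with an adjusted p of 0.0580 in edgeR's quasi-likelihood test, 0.000778 in DESeq2 and 0.0673 in limma-voom. It passed edgeR without PrkciffAlbcre 2 (-0.83, adjusted p = 0.0265) and without Prkciff 3 (-0.63, adjusted p = 0.0374). When any other library was left out it did not pass, with edgeR adjusted p-values from 0.139 to 0.173. In bulk liver, fewer hepatocytes and less RNA per hepatocyte cannot be told apart for a lower level of this size. Of the hepatocyte markers, Apob was at 7224 to 8385 CPM in the PrkciffAlbcre libraries and 7498 to 8773 CPM in the Prkciff libraries. Asgr1 was at 427 to 551 CPM and 396 to 507 CPM, so the groups overlapped in both. Apoa1, at 3700 to 4957 CPM against 5043 to 9003 CPM in the Prkciff libraries, was lower without overlap. The sum of the 9 measured markers was also lower without overlap, at 62808 to 77366 CPM against 81763 to 111585 CPM. Alb was the largest part of that sum, at 37357 to 53994.5 CPM against 51563 to 82650 CPM, and its groups overlapped. The groups overlapped in Ttr, Serpinc1, Cps1, Hnf4a and F2 as well, so Apoa1 alone did not overlap. The part of the marker differences in the Slc10a1 value was not tested.

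Slco1b2 (chr6:141629518-141686646, plus strand), the most abundant of the 10 per length and the gene of OATP1B2, the mouse counterpart of the human liver carriers OATP1B1 and OATP1B3, showed no detectable difference. It was at 1543, 1628, 1453 and 1623 CPM in PrkciffAlbcre 1 to 4, against 1454, 1495 and 2088 CPM in Prkciff 1 to 3. Prkciff 3 stood above all other libraries and the rest lay together. Its log2 fold change was -0.10 (SE 0.18, edgeR adjusted p = 0.809), and 0.08 without Prkciff 3. Slco2b1 (chr7:99657804-99711340, minus strand), which encodes OATP2B1, a carrier of steroid sulfates and statins, was at 126, 178, 133 and 145 CPM in PrkciffAlbcre 1 to 4, against 184, 194 and 175 CPM in Prkciff 1 to 3. Only PrkciffAlbcre 2 reached into the range of the Prkciff libraries, and the log2 fold change of -0.34 (SE 0.13) did not pass edgeR (adjusted p = 0.211). Exons of Slco2b1 overlap those of Gm15635 and Gm34280 on the other strand by 471 and 78 bases, and exons of Abcb11 overlap Gm13613 and Gm13614 by 136 and 19 bases, so the counts of both are uncertain to that extent where strand was not used.

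The 3 canalicular pumps had no call. Abcb11 (chr2:69238282-69342616, minus strand) encodes BSEP, the bile salt export pump. It was at 991, 507, 912 and 831 CPM in PrkciffAlbcre 1 to 4, against 556, 813 and 634 CPM in Prkciff 1 to 3. PrkciffAlbcre 2 was the lowest of all 7 libraries while the other PrkciffAlbcre libraries were the highest, and the log2 fold change was 0.28 (SE 0.24, edgeR adjusted p = 0.588). Abcc2 (chr19:43782192-43840740, plus strand) encodes MRP2, which exports bilirubin glucuronides and glutathione conjugates. It averaged 519 ± 83.5 CPM in the PrkciffAlbcre libraries (SD, n = 4) and 520 ± 113 CPM in the Prkciff libraries (SD, n = 3), a difference of -0.0042 on the log2 scale (SE 0.19).

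Abcb4 (chr5:8893717-8959231, plus strand), the canalicular phospholipid floppase also known as MDR2, was at 650, 524, 625 and 713 CPM in PrkciffAlbcre 1 to 4, against 383, 341 and 576 CPM in Prkciff 1 to 3. Prkciff 3 lay among the PrkciffAlbcre libraries and Prkciff 1 and 2 lay below all of them. Its log2 fold change was 0.54 (SE 0.20, edgeR adjusted p = 0.196). Without Prkciff 3 it was 0.79 and passed (edgeR adjusted p = 0.00868), whereas with Prkciff 3 as the lone control it was 0.12 (edgeR adjusted p = 0.852). The same library decided the value of a basolateral exporter.

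Abcc3 (chr11:94343295-94392997, minus strand), the gene of MRP3, which returns glucuronides and bile salts to blood, was at 488, 432, 362 and 547 CPM in PrkciffAlbcre 1 to 4, against 76.7, 94.9 and 421 CPM in Prkciff 1 to 3. Prkciff 3, at 4.91 times the mean of Prkciff 1 and 2, lay within the range of the PrkciffAlbcre libraries. The log2 fold change was 1.21 (SE 0.64) and did not pass edgeR (adjusted p = 0.389). It was 2.41 without Prkciff 3 (edgeR adjusted p = 8.92e-05), 0.12 with Prkciff 3 as the lone control (edgeR adjusted p = 0.881) and 0.53 with the acute phase score, the mean log2 CPM of the listed acute phase genes, as a covariate (edgeR adjusted p = 0.120). Prkciff 1 and 2 were also the libraries with 16.9% and 17.1% of reads in acute phase genes and with neutrophil markers at 258 and 63.4 CPM summed over 5 genes, against 12.4 to 15.9 CPM in the PrkciffAlbcre libraries and 15.3 CPM in Prkciff 3. The plot against the acute phase share sets this pattern beside that of the Slco1a pair, for which Prkciff 3 stayed with the other Prkciff libraries.

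**Figure D2:**
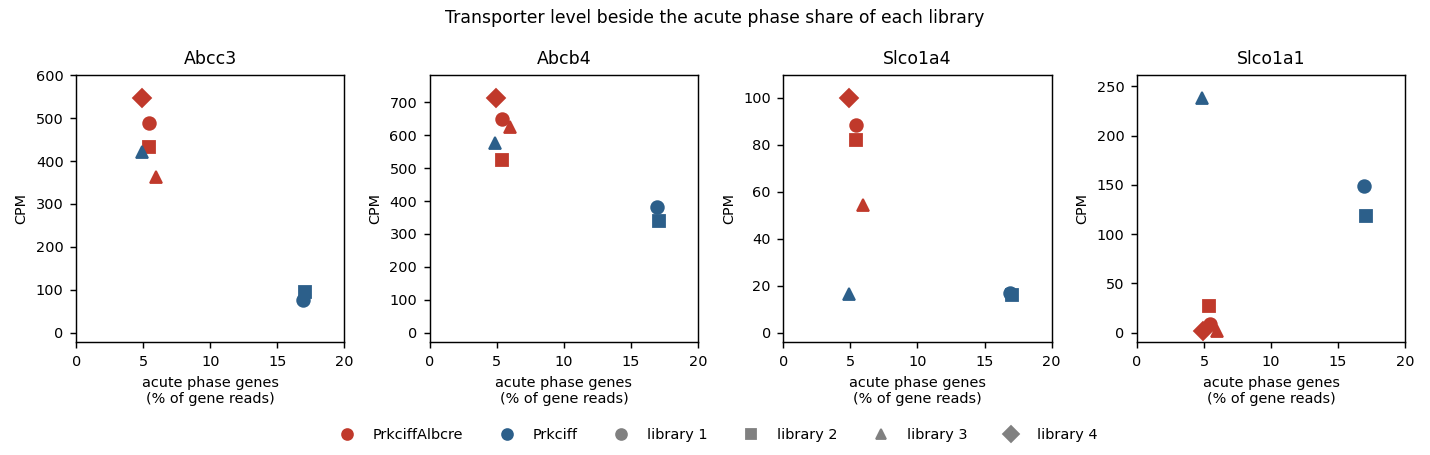
CPM of Abcc3, Abcb4, Slco1a4 and Slco1a1 (y axes, linear) against the percentage of gene reads in 27 acute phase genes (x axis), 1 point per library, PrkciffAlbcre in red and Prkciff in blue. Prkciff 3, at 4.88%, sits with the PrkciffAlbcre libraries for Abcc3 (421 CPM) and Abcb4 (576 CPM) and with Prkciff 1 and 2 for Slco1a4 (16.4 CPM), while for Slco1a1 it is the highest library (238 CPM).

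Abcc4 (chr14:118482692-118706219, minus strand), the gene of MRP4, which exports bile salts together with glutathione and cyclic nucleotides, was the least abundant exporter. It was at 42.5, 12.3, 8.11 and 23.3 CPM in PrkciffAlbcre 1 to 4, against 7.24, 5.44 and 6.66 CPM in Prkciff 1 to 3. All PrkciffAlbcre libraries were above the Prkciff libraries, but PrkciffAlbcre 3 by little and PrkciffAlbcre 1 by much. Its log2 fold change was 1.75 (SE 0.60, edgeR adjusted p = 0.206), and 1.18 without PrkciffAlbcre 1 (edgeR adjusted p = 0.199). PrkciffAlbcre 1 was also the library with the highest sum of 8 liver tumour markers, at 369.6 CPM, of which H19 took 219 CPM, against 38.2 to 59.9 CPM in the other PrkciffAlbcre libraries and 40.1 to 90.6 CPM in the Prkciff libraries. The part of that difference in the Abcc4 value was not tested.

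**Figure D3:**
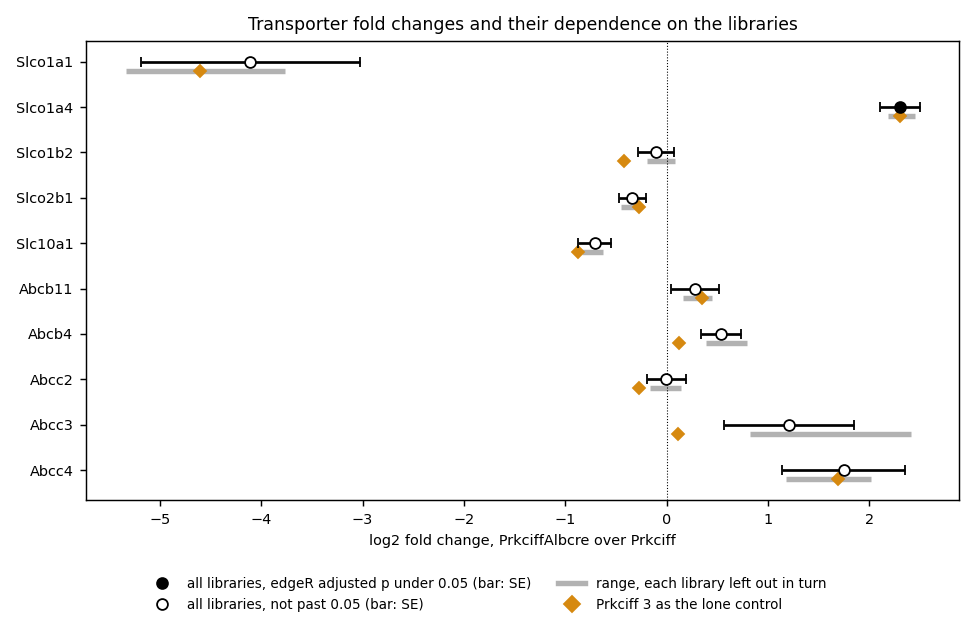
Log2 fold change of each transporter, PrkciffAlbcre over Prkciff (x axis), as fitted by edgeR with all libraries (circle, filled where the adjusted p is under 0.05, bar for the SE), the range when each library is left out in turn (grey) and the value with Prkciff 3 as the lone control (diamond). Slco1a4 stays between 2.19 and 2.45 over the left-out libraries, while Abcc3 ranges from 0.83 to 2.41 and is at 0.12 with the lone control.

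Corrected for exonic length, Slco1a1 ranked the last of the 10 in the PrkciffAlbcre libraries and the seventh in the Prkciff libraries, while Slco1b2, Slc10a1 and Abcb11 led in both. In the PrkciffAlbcre libraries Slco1b2 led at 317 ± 16.7 CPM per kb, then Slc10a1 at 181 ± 33.1 and Abcb11 at 157 ± 41.3 CPM per kb, with the last 2 within their spread (SD, n = 4). In the Prkciff libraries the same genes led, Slco1b2 at 341 ± 72.0, Slc10a1 at 296 ± 31.3 and Abcb11 at 129.8 ± 25.6 CPM per kb, with the first 2 within their spread (SD, n = 3). In Prkciff 1 to 3 Slco1b2 was above Slc10a1 each time, at 295, 303 and 424 against 284, 273 and 332 CPM per kb. Below these leading genes Abcc3, Abcb4 and Abcc2 lay within their spread of each other in both groups. They averaged 60.8 to 80.3 CPM per kb in the PrkciffAlbcre libraries and 34.7 to 61.0 CPM per kb in the Prkciff libraries. Within libraries, Abcc3 was at 1.11 to 1.51 times Abcc2 in the PrkciffAlbcre group and at 0.265 to 1.01 times in the Prkciff group. Slco1a1 was at 1.85 ± 2.24 CPM per kb in the PrkciffAlbcre libraries and in the Prkciff libraries stood at 32.0 ± 11.8 CPM per kb, within its spread of Slco2b1 at 30.9 ± 1.59 CPM per kb. Slco1a4 was at 12.7 ± 3.02 CPM per kb in the PrkciffAlbcre libraries and 2.57 ± 0.0876 CPM per kb in the Prkciff libraries.

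**Figure D4:**
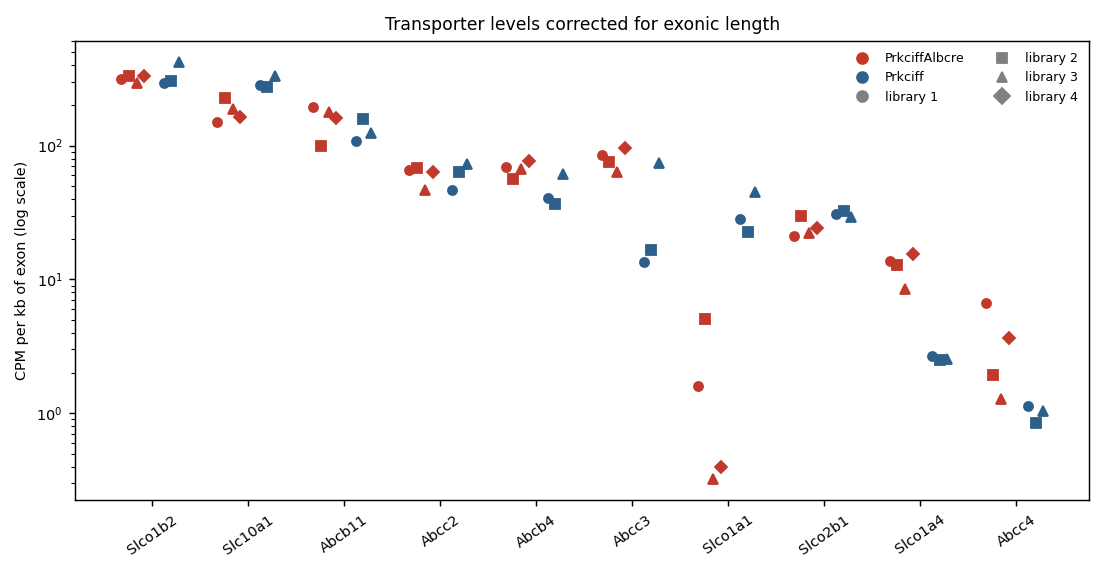
CPM per kb of exon on a log axis for the 10 transporters, ordered by their mean in the Prkciff libraries, with PrkciffAlbcre libraries in red on the left of each pair and Prkciff libraries in blue. Slco1b2 is the most abundant in both groups (means of 317 and 341 CPM per kb), and Slco1a1 spans from 0.322 CPM per kb in PrkciffAlbcre 3 to 45.1 CPM per kb in Prkciff 3.

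Summed by role, the 5 uptake carriers came to 499.0, 603, 513 and 532 CPM per kb in PrkciffAlbcre 1 to 4, against 641, 633 and 832 CPM per kb in Prkciff 1 to 3, and the groups did not overlap. Slc10a1 made up 30.0% to 37.3% of that sum in the PrkciffAlbcre libraries and 39.8% to 44.3% in the Prkciff libraries, while Slco1b2 made up 54.8% to 62.7% against 46.1% to 50.9%. Slco1a4 made up 1.65% to 2.93% against 0.307% to 0.415%, so its 4.93-fold rise concerned a small share of the uptake transcripts. The 3 canalicular pumps summed to 223 to 327 CPM per kb in the PrkciffAlbcre libraries and to 196 to 258 CPM per kb in the Prkciff libraries, and the 2 basolateral exporters to 64.8 to 99.7 against 14.6 to 74.99 CPM per kb, with overlap in both roles. These sums are descriptions and carry no test.

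The genes with profiles nearest to Slco1a4 and Slco1a1 were taken as those with the smallest root mean square difference of log2 CPM deviations over the 7 libraries, among tested genes other than the members with a mean log2 CPM over 1, leaving out those that carry only a provisional symbol. For Slco1a4 they were Etnppl, an ethanolamine phosphate phospholyase, at a distance of 0.32, the alpha tubulin Tuba8 at 0.36 and Fam83a at 0.42 on the log2 scale. For Slco1a1 they were the steroid dehydrogenase Hsd3b5 at 0.80 and the major urinary protein genes Mup1 at 0.95 and Mup9 at 1.00. Hsd3b5 was at 0.318, 2.37, 0.0982 and 0.323 CPM in PrkciffAlbcre 1 to 4, against 27.6, 26.1 and 49.9 CPM in Prkciff 1 to 3, and like Slco1a1 was highest among the PrkciffAlbcre libraries in PrkciffAlbcre 2. The Mup genes are close copies of each other, which leaves the value of any single copy uncertain.

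**Figure D5:**
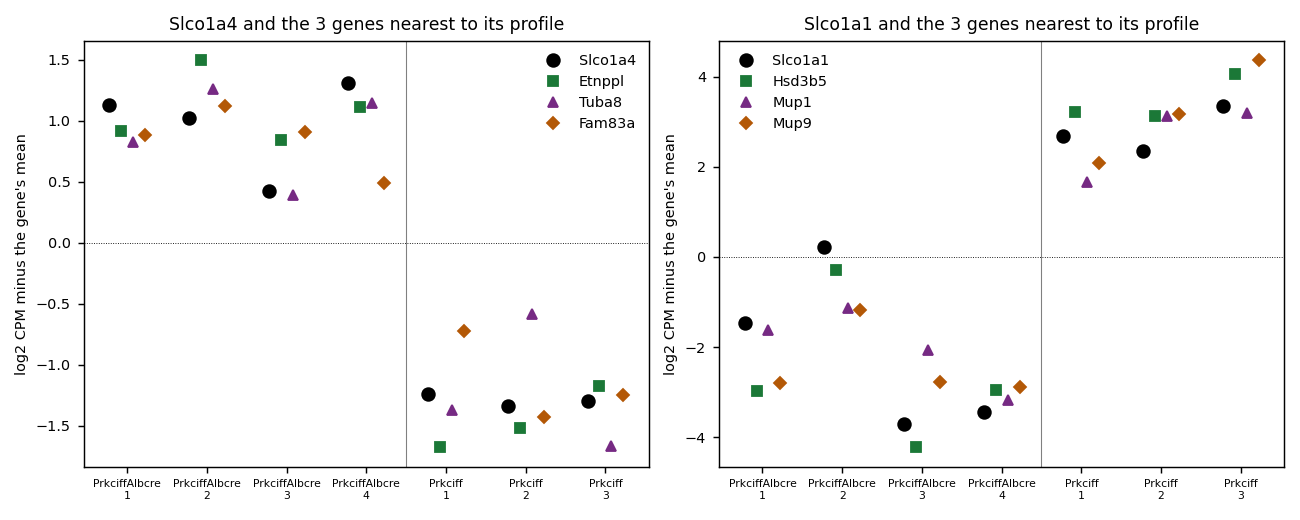
Log2 CPM minus the gene's mean over the 7 libraries (y axis) in each library (x axis, PrkciffAlbcre left of the line) for Slco1a4 (left panel) and Slco1a1 (right panel) with the 3 genes nearest to each. The nearest genes lie at distances of 0.32 to 0.42 from Slco1a4 and of 0.80 to 1.00 from Slco1a1, whose level in PrkciffAlbcre 2 was 26.8 CPM, the highest of its group.

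Of 23 other transporters of hepatocytes tested, 2 rose, 1 fell and 20 did not pass, with a median log2 fold change of -0.10 against -0.0083 over all genes, of which 1.26% were called higher and 0.953% lower. DESeq2 called 8 of the 23, beside 6.33% of all genes it tested, and limma-voom 1, beside 1.17%. Here and below, the DESeq2 share is over 17649 genes without the filter on low counts, against 13638 for limma-voom. Genes to which DESeq2 gave no adjusted p count as not called, so 6.33% may understate the share that matches the lists. Over the fits that left out 1 library edgeR called 1 to 7, beside 0.221% to 9.32% of all tested genes. Abcb1b, one of the pair of mouse multidrug resistance pumps and a close paralog of Abcb4, rose to 34.3 ± 6.83 CPM in the PrkciffAlbcre libraries (SD, n = 4), against 13.1 ± 1.18 CPM in the Prkciff libraries (SD, n = 3), a log2 difference of 1.39 (SE 0.16, edgeR adjusted p = 0.00542). Slc22a7, the organic anion transporter OAT2, fell to 13.6 ± 3.27 CPM, against 57.8 ± 31.5 CPM in the Prkciff libraries, and the cation transporter Slc22a3 rose to 12.6 ± 4.58 CPM, against 4.58 ± 0.590 CPM in the Prkciff libraries. Abcb1b shares 75-base runs with Abcb4, of whose own runs 1.30% stand in another gene.

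Of 13 genes of bile salt synthesis and conjugation, 0 passed edgeR's quasi-likelihood test, and the median was -0.06. DESeq2 called 3, beside 6.33% of all genes it tested, and limma-voom 0, beside 1.17%. In edgeR 1 was higher and 4 were lower at an unadjusted p under 0.05, beside 18% of all tested genes in either direction. The most abundant was Scp2, a sterol carrier, at 2595 ± 484 CPM in the PrkciffAlbcre libraries (SD, n = 4) and 2575 ± 335 CPM in the Prkciff libraries (SD, n = 3). Of 21 nuclear receptors and other factors known to control these transporters, 0 passed edgeR, and the median was -0.18. DESeq2 called 5, beside 6.33% of all genes it tested, and limma-voom 0, beside 1.17%. In edgeR 3 were higher and 5 lower at an unadjusted p under 0.05, beside 18% of all tested genes in either direction. The most abundant, the hepatocyte nuclear receptor Hnf4a, was at 740.3 ± 58.9 CPM in the PrkciffAlbcre libraries (SD, n = 4) and 837 ± 82.8 CPM in the Prkciff libraries (SD, n = 3).

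Of 25 scaffold and trafficking genes of the canalicular membrane, 1 fell and 24 did not pass, beside 0.953% of all tested genes called lower, with a median of -0.05. It was Ceacam1, a canalicular adhesion molecule, at 112 ± 7.33 CPM in the PrkciffAlbcre libraries (SD, n = 4) and 161 ± 15.9 CPM in the Prkciff libraries (SD, n = 3), a log2 difference of -0.52 (SE 0.11, edgeR adjusted p = 0.0378). DESeq2 called 3 of the list, beside 6.33% of all genes it tested. With limma-voom 0 were called, beside 1.17% of all tested genes, and with the acute phase covariate in edgeR 0, beside 1.14%. Without PrkciffAlbcre 1, 3 or 4 or Prkciff 1 or 2 edgeR also called 0. The shares of all tested genes called in those fits were 0.573%, 0.405%, 0.498%, 0.255% and 0.221%.

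Slco1a1 and Slco1a4 are themselves known as sex-biased, and other such genes were read beside them. Of 16 male-biased genes, 5 fell, 0 rose and 11 did not pass, beside 0.953% of all tested genes called lower, with a median of -1.19. DESeq2 called 10, beside 6.33% of all genes it tested, and limma-voom 5, beside 1.17%. With 1 library left out, edgeR called 1 without PrkciffAlbcre 1 or 3 or Prkciff 1 or 2. The shares of all tested genes called in those fits were 0.573%, 0.405%, 0.255% and 0.221%. In edgeR 3 were called without PrkciffAlbcre 4, beside 0.498%, and 8 without PrkciffAlbcre 2 or Prkciff 3, beside 3.19% and 9.32%. Among those that fell were Mup21, with a log2 difference of -1.25 (SE 0.15), the complement gene C6 at -1.14 (SE 0.19), Serpina1e at -4.76 (SE 0.71) and Mup7 at -6.86 (SE 0.95), with edgeR adjusted p-values from 0.00712 to 0.0321, the Mup and Serpina1 copies being uncertain. Of 13 tested female-biased genes, 2 rose and 11 did not pass, beside 1.26% of all tested genes called higher, with a median of -0.24. DESeq2 called 3, beside 6.33% of all genes it tested, and limma-voom 0, beside 1.17%. With 1 library left out, edgeR called 0 without Prkciff 1 or 2, 1 without PrkciffAlbcre 1 or 3, and 4 without Prkciff 3. The shares of all tested genes called in those fits were, in that order, 0.255%, 0.221%, 0.573%, 0.405% and 9.32%. Among those that rose was the flavin monooxygenase Fmo2, at 35.6 ± 9.26 CPM in the PrkciffAlbcre libraries (SD, n = 4) against 12.2 ± 2.62 CPM in the Prkciff libraries (SD, n = 3).

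Of the 27 acute phase genes, 2 fell and 25 did not pass, beside 0.953% of all tested genes called lower, with a median of -1.44. At an unadjusted p under 0.05, 19 were lower, beside 18% of all tested genes in either direction. Those that fell were Itih4, an inter-alpha-trypsin inhibitor chain, at 2703 ± 314 CPM in the PrkciffAlbcre libraries (SD, n = 4) against 8955 ± 4648 CPM in the Prkciff libraries (SD, n = 3), and the serum amyloid gene Saa3, at 21.3 ± 2.81 against 32.5 ± 4.01 CPM. Without Prkciff 3, 25 of the acute phase genes passed, beside 9.32% of all tested genes. When any other library was left out 0 passed, beside 0.221% to 3.19% of all tested genes. DESeq2 called 16, beside 6.33% of all genes it tested. Limma-voom and edgeR without robust estimation called 0, beside 1.17% and 2.27%.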

How the data were processed

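Whole-liver RNA was sequenced from a directional poly(A) library kit, per the labels' protocols, in 4 PrkciffAlbcre and 3 Prkciff libraries, grouped by their titles. The authors deposited raw read counts per gene in 1 table. STAR, DESeq2 and the mm10 genome build are named, per the submitters' processing notes; for the counter, its strand setting and its annotation, the entry is "not given in the sources used here". Rows that name no gene were left out of library sizes and tests: reads in no feature made up 8.62% to 16.3% and ambiguous reads 0.433% to 0.575% of the total. A count of 0 allows up to 3 reads, or 0.0561 to 0.152 CPM, which covers counting error only.

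From the counts, genes were filtered with edgeR's filterByExpr (minimum count 10), scaled by TMM and tested across all 13638 genes with edgeR 4.0.16's robust quasi-likelihood test (glmQLFTest, R 4.3.3), PrkciffAlbcre over Prkciff, with Benjamini-Hochberg adjustment over all genes and a threshold of 0.05. Alternatives were DESeq2 1.42.0, limma-voom (limma 3.58.1), other scalings, filters and thresholds, leaving out each library, Prkciff 3 as the lone control, an acute phase covariate and a replicate block. The code was tested on simulated data. Levels between genes used CPM per kb of merged exons, from GENCODE M21. No pair of libraries agreed within counting noise. The labels do not state that libraries of 1 group came from separate litters, so p-values set the group difference against the spread between these libraries only.

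The members and gene lists were chosen with earlier results of these data known. All 10 members were named, with the 3 genes nearest in profile to each of Slco1a4 and Slco1a1, and from each list up to 4 genes that passed the test, by smallest p, or the most abundant gene where none passed; 1 gene that the rule names is not reported here. Of Mup and Serpina1 genes, near-identical copies make the counts uncertain.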

Additional observations from a re-analysis of the deposited data

Results flagged for a closer look

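The transporters, Prkci and the single genes read beside them, 29 in all, were screened for a PrkciffAlbcre library far from the other 3 by Dixon's ratio at the 95% level, which chance alone exceeds in about 1 in 20 groups. None of the 10 transporters exceeded it, Slco1a1 coming to 0.734. Library 2 stood high for 3 of the genes read beside Slco1a1: Hsd3b5 was at 2.37 CPM, with the next PrkciffAlbcre library at 0.323 CPM, Mup9 at 1.12 CPM with the next at 0.327 CPM, and Mup7 at 17.2 CPM with the next at 4.00 CPM. Hsd3b5 and Mup9 were chosen for profiles near that of Slco1a1, which was itself highest of its group in library 2. Their high values there are therefore not a separate observation, and the rate of 1 in 20 does not hold for them. Mup7 and Mup9, as close copies, are not independent of each other. Among the female-biased genes, Fmo2 was low in library 4 at 21.9 CPM, with the next at 38.3 CPM.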

How the results depend on the processing

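Over 10 transporters and 17 alternatives, 155 of 170 log2 fold changes kept their direction and their side of the threshold, 8 came to pass it, 1 no longer passed and 6 changed sign. Abcc2, near 0, changed sign with limma-voom (0.0051) and with no filter on low counts (0.0017), and ranged from -0.16 to 0.14 over the left-out libraries, above 0 without PrkciffAlbcre 3, Prkciff 2 or Prkciff 3. Slco1b2 ranged from -0.20 to 0.078, above 0 without Prkciff 3; the cause was not tested. The number of transporters past the threshold, 1 in the report, was 3 with DESeq2, 2 without robust estimation, 2 with no filter on low counts, 2 at an adjusted p under 0.1, 0 with Prkciff 3 as the lone control (fewer samples, the lone library being assumed to vary like the others) and 1 to 4 when each library was left out. The 4 without Prkciff 3 were Slco1a4, Slc10a1, Abcb4 and Abcc3. Of all genes 302 passed, against 1117 with DESeq2, 159 with limma-voom, 9 with Prkciff 3 as the lone control, 155 with the acute phase covariate, 767 and 27 at adjusted p under 0.1 and 0.01, and 31 to 1310 over the left-out libraries, the highest without Prkciff 3. Of the 7 gene lists together 13 passed, against 47 with DESeq2, 6 with limma-voom, 0 with Prkciff 3 as the lone control, 8 with the covariate and 2 to 53 over the left-out libraries.

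Libraries with the same number shared only the number: the correlations of their deviations were -0.0509, 0.0690 and -0.139. With the number as a replicate block, 76 genes and 6 list genes passed, and Slco1a4 was at 2.16 (edgeR adjusted p = 0.0103). Depth does not limit the members, all well above the floor, but 3 Prkciff libraries, of which 1 stands apart, limit every comparison.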

Other observations

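Some genes of the bile salt and transporter pathways lay between the threshold and an adjusted p of 0.1 in edgeR's quasi-likelihood test; they were chosen after their values were seen and are given as values. Nr0b2, which encodes SHP, a repressor in the bile salt feedback loop, was at 78.7 ± 23.3 CPM in the PrkciffAlbcre libraries (SD, n = 4) and 36.6 ± 6.95 CPM in the Prkciff libraries (SD, n = 3), with an adjusted p of 0.0579 in edgeR. Nfe2l2, the gene of NRF2, was at 129 ± 21.7 CPM against 79.2 ± 19.2 CPM. Cyp7b1, a hydroxylase of the alternative bile acid pathway, was at 72.9 ± 39.1 CPM in the PrkciffAlbcre libraries and 252 ± 44.2 CPM in the Prkciff libraries. Cyp7a1, the rate-limiting enzyme of the classic pathway, is given only for comparison, as its adjusted p in edgeR was above 0.1. Cyp7a1 was at 128 ± 79.3 CPM in the PrkciffAlbcre libraries and 163 ± 107 CPM in the Prkciff libraries, and the groups overlapped. Abcb1a, the other multidrug resistance pump of the mouse pair, was at 36.6 ± 22.2 CPM in the PrkciffAlbcre libraries and 3.17 ± 1.12 CPM in the Prkciff libraries, with a log2 fold change of 3.52 (SE 0.71) and an adjusted p of 0.0678 in edgeR. Bcl6, a repressor known in mouse liver for sex-biased genes, was at 12.3 ± 1.08 CPM against 55.1 ± 31.6 CPM. By library Bcl6 was at 71.3, 75.2 and 18.7 CPM in Prkciff 1 to 3. Prkciff 3 thus lay near the PrkciffAlbcre libraries, at 10.9 to 13.3 CPM, and most of the difference came from Prkciff 1 and 2. The scaffold gene Pdzk1, which binds several transporters, was at 65.1 ± 6.78 CPM against 88.6 ± 4.87 CPM.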
